A study of Mus musculus with 9 samples.

Results

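The genes described here encode MHC class I molecules and the machinery that supplies them with peptide. They are the 10 symbols H2-K1, H2-D1, B2m, Tap1, Tap2, Tapbp, Psmb8, Psmb9, Psmb10 and Nlrc5, chosen by name. Each stood on 1 of the 54532 entries of the count files, and all 10 were among the 14193 genes tested. The counts came from bulk RNA-seq of 9 subcutaneous melanomas of C57BL/6 mice, which had received B16-F10 cells and were killed on day 16. B16-F10 is a melanoma line of C57BL/6 origin. Fbxo38, an F-box protein that binds substrates for an SCF ubiquitin ligase, was targeted by 2 knockdown hairpins; the other cells had a control hairpin, and each of the 3 groups had 3 libraries. The titles call the groups shcontrol, shFBXO38#1 and shFBXO38#2. The genotype label is WT for the controls and runs from FBXO38 to FBXO43 knockdown over the other 6 libraries, so groups follow the titles. All treatment labels read none, and no age or sex is given. The hairpins were carried by the injected cells, so the host cells of a tumour were not labelled as modified, and the labels do not say whether a line was 1 clone or whether replicates came from separate animals. P-values therefore measure only the spread between these samples.

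MHC class I molecules show short peptides from inside a cell to CD8 T cells. A polymorphic heavy chain, in C57BL/6 mice H2-K1 or H2-D1, pairs with the light chain beta-2-microglobulin, encoded by B2m. The peptides are cut by the proteasome, whose catalytic subunits are replaced under interferon gamma by Psmb8, Psmb9 and Psmb10. They are then pumped into the endoplasmic reticulum by the transporter made of Tap1 and Tap2, and tapasin, encoded by Tapbp, bridges that transporter to the empty class I molecule. Nlrc5 is a transcriptional coactivator of the class I genes. B16 melanoma cells are known for low class I levels in culture that interferon gamma raises.

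Of the 10 genes, 7 lie on chromosome 17, in or beside the MHC. In GENCODE M21 on GRCm38, the stretch from Tapbp to H2-D1 runs from 33915899 to 35267499. It holds H2-K1 (33996017 to 34000347, minus strand), Psmb9 (34181987 to 34187764, minus strand), Tap1 (34187553 to 34197225, plus strand), Psmb8 (34197721 to 34201454, plus strand) and Tap2 (34203527 to 34216321, plus strand). B2m lies on chromosome 2 (122147686 to 122153083), and Psmb10 (105935735 to 105938444) and Nlrc5 (94434356 to 94527272) lie on chromosome 8. Exons of Tap1 and Psmb9 overlap by 212 bases, 3.87% of the exon bases of Tap1 and 5.79% of those of Psmb9. Other genes overlap 29% of the exon bases of Tapbp, 18.5% of those of Tap2 and 14.7% of those of Psmb8. Whether counting used strand is not given, so reads in those stretches could have come from either gene, and reads shared between H2-K1, H2-D1 and other class I paralogs could have been split between them.

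Promoters are shown for both heavy chains, the light chain and Tap1, because these genes sit on different chromosomes or in head-to-head and duplicated arrangements and yet varied together in the tumours. Each line gives the 250 bases before the RefSeq gene start (GRCm38.p6), 5′ to 3′ on the gene's own strand. Capitals mark matches, on either strand, to the nearly palindromic kappa B letters, the longest run of capitals in the H2-K1 and H2-D1 lines, to GAANNGAAA (a pair of interferon regulatory factor half-sites), the same pair set 1 base farther apart (the first run of capitals in the B2m line), to CCAAT and TGACG (the core of the X2 or cyclic AMP response box). TGACG and the wider pair were added after the sequences were seen.
H2-K1, chr17:34000348-34000597, minus strand: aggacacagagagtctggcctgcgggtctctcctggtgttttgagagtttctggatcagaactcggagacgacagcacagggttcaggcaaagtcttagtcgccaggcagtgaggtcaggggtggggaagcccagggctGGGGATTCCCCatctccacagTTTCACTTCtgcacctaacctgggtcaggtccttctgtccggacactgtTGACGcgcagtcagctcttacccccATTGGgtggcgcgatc
H2-D1, chr17:35262844-35263093, plus strand: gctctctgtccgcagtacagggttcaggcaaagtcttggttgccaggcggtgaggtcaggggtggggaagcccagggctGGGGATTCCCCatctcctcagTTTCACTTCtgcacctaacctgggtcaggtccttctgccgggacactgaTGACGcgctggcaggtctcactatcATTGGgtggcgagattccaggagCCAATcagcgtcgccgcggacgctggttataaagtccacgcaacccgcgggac
B2m, chr2:122147437-122147686, plus strand: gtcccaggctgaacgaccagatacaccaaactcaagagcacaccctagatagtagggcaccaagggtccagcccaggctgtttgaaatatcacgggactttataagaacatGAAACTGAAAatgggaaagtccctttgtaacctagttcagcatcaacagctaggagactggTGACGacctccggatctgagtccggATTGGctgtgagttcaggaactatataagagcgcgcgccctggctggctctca
Tap1, chr17:34187306-34187555, plus strand: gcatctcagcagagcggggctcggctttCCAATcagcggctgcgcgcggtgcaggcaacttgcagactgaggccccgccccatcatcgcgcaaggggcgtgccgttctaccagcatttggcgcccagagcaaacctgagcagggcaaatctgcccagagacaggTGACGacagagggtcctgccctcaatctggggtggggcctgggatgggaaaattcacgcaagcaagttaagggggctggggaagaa

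Both heavy chain promoters held the kappa B letters followed by TTTCACTTC, the reverse-strand form of the interferon factor pair. In H2-K1 these began 111 and 90 bases before the start, and in H2-D1 they began 171 and 150 bases before it. Aligned on the kappa B site, 146 of 160 bases (91.2%) of the 2 promoters were identical. These 160 bases leave out both ends of the stretch that the 2 windows share, where bases also differ. The exact kappa B letters were in 10 of 32851 promoter windows of this length (0.0304%), which belong to 9 gene symbols. Only these exact letters were searched. The share therefore does not measure how rare kappa B sites with other letters are, and such sites in the other promoters, B2m included, were not marked. These 9 include H2-K1 and H2-D1 themselves and a further class I gene, H2-Q6. RefSeq windows were matched for 8 of the 10 genes, without Tap2 and Nlrc5. Among these 8, CCAAT was in 6 against 33.8% of all windows, TGACG in 5 against 17.8%, GAANNGAAA in 2 against 6.31%, and the wider pair in 1, B2m, against 2.98%. No matches overlapped each other. The Tap1 and Psmb9 starts lie 226 bases apart on opposite strands, so the CCAAT and TGACG matches of these 2 genes are the same bases. A match of letters is a description and not a measured binding site.

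Library totals ran from 15322163 to 17342554 counts. The 10 genes had between 100 and 24772 counts in a library, and at least 518 in each library other than replicate 2 of hairpin 2, so counting error was small beside the spread between tumours. Fbxo38 stood at 21.7, 31.3 and 30.8 CPM in control, 35.1, 21.0 and 22.03 CPM in the libraries labelled hairpin 1, and 21.0, 11.4 and 11.9 CPM with hairpin 2. CPM are counts scaled to library size with TMM factors. Its log2 fold change against control was -0.10 (SE 0.28) in the libraries labelled hairpin 1 and -0.92 (SE 0.29) with hairpin 2 (edgeR adjusted p = 1.00 and 0.254), so a lower target was not detectable under the first label. Replicate 1 labelled hairpin 1 and replicate 2 of hairpin 2 stood apart from the others on the first principal component. They stood at 60.6 and -54.8 against -21.5 to 30.7. The fold changes of the 10 genes, their median span and most correlations are also given without 1 or both of these libraries. The spans of single genes and of ratios are over all libraries, so replicate 2 of hairpin 2 often sets their low end. The melanocyte genes Pmel, Mlana, Tyr, Tyrp1, Dct, Mitf and Sox10 summed to 20473 to 26930 CPM, and none was at 0 in any library.

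The heavy chains and the light chain were the most abundant of the 10 transcripts in every group. H2-K1 stood at 600.2, 854 and 449.5 CPM in control, at 1005, 776 and 543 CPM in the libraries labelled hairpin 1, and at 428.5, 112 and 893 CPM with hairpin 2. H2-D1 stood at 984, 1250 and 886 CPM, then at 1467, 1121 and 818 CPM, and then at 679, 181 and 1205 CPM in the same order. In both, replicate 2 of hairpin 2 was the lowest of all 9 libraries and replicate 1 labelled hairpin 1 the highest, and the 3 groups overlapped. B2m stood at 1022, 1284 and 854 CPM in control, at 1381, 1094 and 750 CPM labelled hairpin 1, and at 805, 217 and 1231 CPM with hairpin 2. The lowest and the highest library were the same as for the heavy chains, with hairpin 2 holding both the lowest value and 1 of the 3 highest.

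The transporter subunits spanned a wider range than the heavy and light chains. Tap1 stood at 181, 251.5 and 136 CPM in control, at 319, 176 and 101 CPM labelled hairpin 1, and at 101, 14.7 and 220 CPM with hairpin 2, a 21.6-fold span between the highest and the lowest library. Tap2, its partner, stood at 50.3, 73.1 and 47.2 CPM, at 94.0, 61.7 and 38.0 CPM, and at 32.5, 5.96 and 76.5 CPM, a 15.8-fold span. Both subunits were lowest in replicate 2 of hairpin 2 and highest in replicate 1 labelled hairpin 1. Tapbp, which tethers class I to the transporter, spanned only 6.61-fold, from 52.7 to 348 CPM, next to B2m with 6.37-fold.

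The immunoproteasome subunits had wide spans as well. Psmb8, which replaces Psmb5, stood at 105, 86.4 and 46.6 CPM in control, at 154, 116 and 66.7 CPM labelled hairpin 1, and at 34.1, 8.23 and 152 CPM with hairpin 2. The hairpin 2 group thus held the 2 lowest values of the 9 and also the second highest. Psmb9, which replaces Psmb6, spanned 19.0-fold from 7.40 to 140 CPM, and Psmb10, which replaces Psmb7, spanned 10.2-fold from 22.4 to 227 CPM. The coactivator Nlrc5 stood at 67.55, 51.5 and 37.4 CPM in control, at 57.4, 40.4 and 33.6 CPM labelled hairpin 1, and at 42.1, 7.40 and 70.8 CPM with hairpin 2. It was the only 1 of the 10 whose highest library was not replicate 1 labelled hairpin 1 but replicate 3 of hairpin 2.

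**Figure D1:**
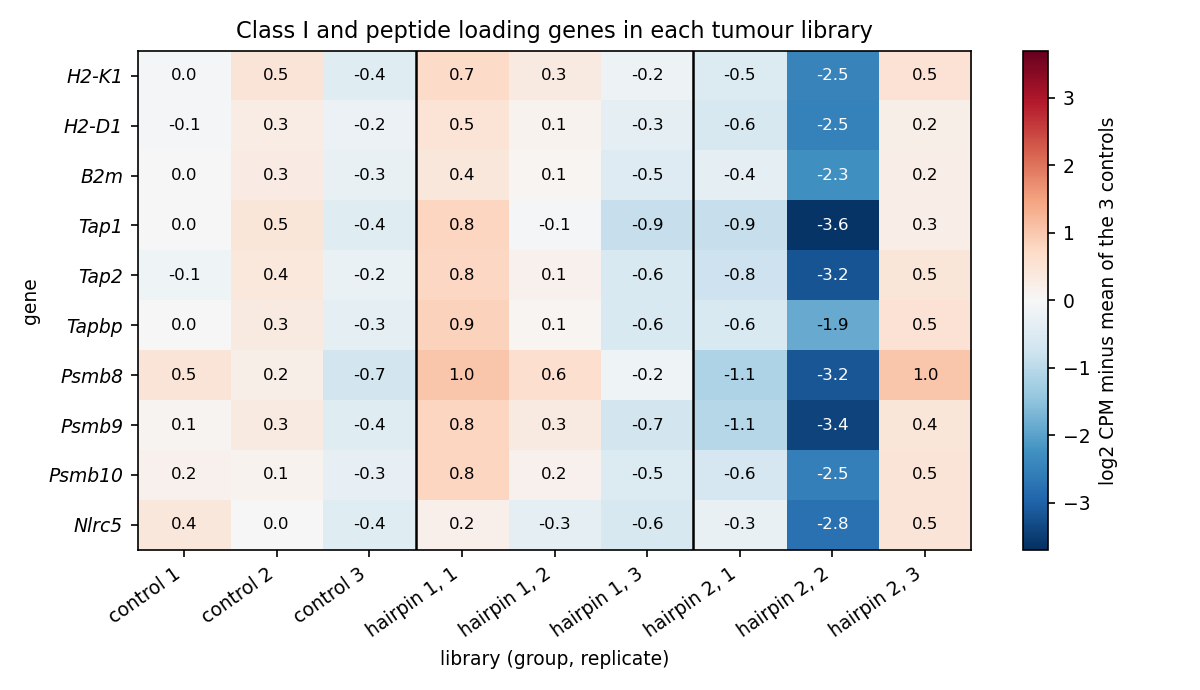
Each cell gives the log2 CPM of 1 gene (rows) in 1 library (columns) minus the mean of the 3 controls, with vertical lines between the groups. Replicate 2 of hairpin 2 lies 1.86 to 3.63 below the control mean in every row, and replicate 3 of the same hairpin lies above it in every row.

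Averaged over the 10 genes, replicate 2 of hairpin 2 stood at -2.78 log2 units against the mean of the controls, a 6.86-fold difference, with Tap1 the farthest at -3.63 and Tapbp the nearest at -1.86. The other hairpin 2 libraries stood at -0.68 and 0.47. The controls themselves stood at 0.09, 0.29 and -0.38, and the libraries labelled hairpin 1 at 0.69, 0.15 and -0.49. All 10 genes were lowest in replicate 2 of hairpin 2, 8 of 10 were second lowest in replicate 1 of hairpin 2, and 9 of 10 were highest in replicate 1 labelled hairpin 1. The highest library was a median of 9.87-fold above the lowest over the 10 genes, and 2.7-fold without replicate 2 of hairpin 2.

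The level per kb of exon gave the order of the transcripts, since longer transcripts give more reads. In control, B2m came first at 1225 ± 252 CPM per kb (SD, n = 3), before H2-D1 at 403 ± 73.0 and H2-K1 at 216 ± 69.6 CPM per kb. The ranges over the control libraries of these 3 did not overlap each other, nor that of H2-K1 with that of Psmb10, the fourth, at 77.0 ± 13.0 CPM per kb. Tapbp followed at 53.7 ± 12.1, Tap1 at 34.6 ± 10.6, Psmb8 at 23.4 ± 8.79, Psmb9 at 22.5 ± 5.83 and Tap2 at 15.04 ± 3.74 CPM per kb. From Psmb10 to Tap2, each gene overlapped its neighbour in range, although Tapbp lay above Tap1 and Psmb9 above Tap2 in 9 of 9 libraries. Nlrc5, the regulator, came last at 6.14 ± 1.78 CPM per kb, apart from Tap2. The order of the 10 means was the same in all 3 groups, and with hairpin 2 every gene overlapped its neighbour in range. With the longest transcript as the length, Psmb8 and Tap1 changed places in both Fbxo38 hairpin groups and the ranges of H2-D1 and H2-K1 overlapped in control.

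**Figure D2:**
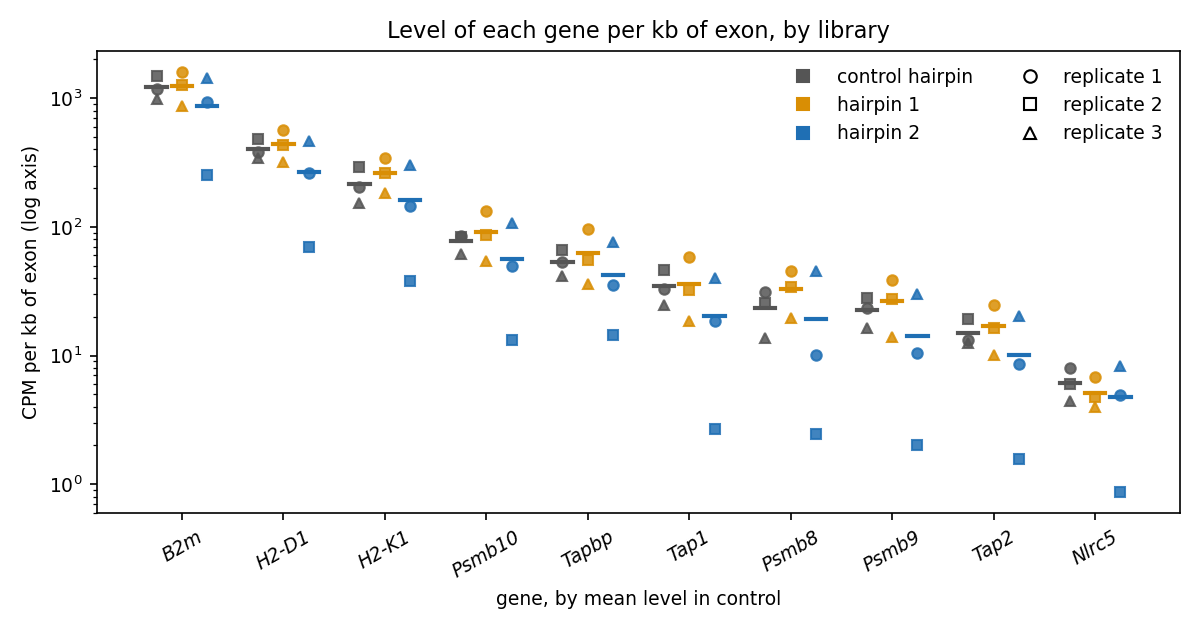
Points give the level of each gene per kb of exon on a log axis in each of the 9 libraries, coloured by group and shaped by replicate, and bars give group means. B2m lies above H2-D1, and H2-D1 above H2-K1, in each of the 9 libraries, and the low square of hairpin 2 lies under the other points at every gene.

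The first comparison asked whether hairpin 1 changed the level of these genes against control. None of the 10 passed an edgeR adjusted p under 0.05, against 0% of all 14193 tested genes, and none had an unadjusted p under 0.05, against 3.17% of all genes. Log2 fold changes ran from -0.25 for Nlrc5 to 0.50 for Psmb8, with a median of 0.20 against 0.01 over all tested genes, and 1 of 10 was negative, against 47.4% of all tested genes. H2-K1 had a log2 fold change of 0.29 (SE 0.66, 95% interval -1.27 to 1.85; edgeR adjusted p = 1.00). B2m had one of 0.03 (SE 0.55, 95% interval -1.26 to 1.32). The intervals of all 10 genes thus reached past a 2-fold difference on both sides. In no gene did the groups stand apart, while 4.09% of all tested genes were higher and 4.3% lower in all 3 libraries of this label than in all controls. The median was -0.18 with replicate 1 labelled hairpin 1 left out and 0.47 with replicate 3 of that label left out. With DESeq2 and limma-voom, too, none of the 10 passed in any of the 3 comparisons.

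The second comparison asked the same of hairpin 2. Each of the 10 genes was on the negative side in log2 fold change, as were 48.5% of all tested genes, with a median of -0.47 against 0.01 over all tested genes. None passed the edgeR threshold, again against 0% of all genes, and none had an unadjusted p under 0.05, against 14.4% of all genes. Tap1 had the lowest log2 fold change, -0.76 (SE 0.85, 95% interval -2.76 to 1.24; edgeR adjusted p = 0.717), and Psmb8 the one nearest 0, -0.29 (SE 0.91, 95% interval -2.43 to 1.86; edgeR adjusted p = 0.910). H2-D1 stood at 688 ± 512 against 1040 ± 188 CPM (SD, n = 3), a log2 fold change of -0.60 (SE 0.59, 95% interval -1.98 to 0.79; edgeR adjusted p = 0.677). In none of the 10 genes did hairpin 2 and control stand apart, while 10.2% of all tested genes lay lower and 10.6% higher in all 3 libraries of hairpin 2 than in all controls. The median was -0.93 with limma-voom. The median of the 10 was -0.03 with replicate 2 of hairpin 2 left out and -1.29 with replicate 3 left out, again with none of the 10 past the threshold. With replicate 2 of hairpin 2 left out, 5 of the 10 (H2-K1, Tapbp, Psmb8, Psmb10 and Nlrc5) had positive values.

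The hairpins were also set against each other. The 10 log2 fold changes of hairpin 2 against hairpin 1 were all negative, against 49.8% of all tested genes, and ran from -0.91 for Psmb9 (SE 0.83, 95% interval -2.87 to 1.05) to -0.13 for Nlrc5 (SE 0.67). They had a median of -0.71 against 0.00 over all tested genes. None passed the edgeR threshold, the lowest adjusted p being 0.653 for H2-D1, against 0% of all genes, and none had an unadjusted p under 0.05, against 11.7% of all genes. No gene stood apart between the hairpins, while 7.67% of all tested genes were lower and 8.31% higher with hairpin 2. Without both libraries that stood apart, the median was 0.13, of the opposite sign. It was -1.09 with limma-voom, -0.24 without replicate 2 of hairpin 2 alone and -1.53 without replicate 3.

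**Figure D3:**
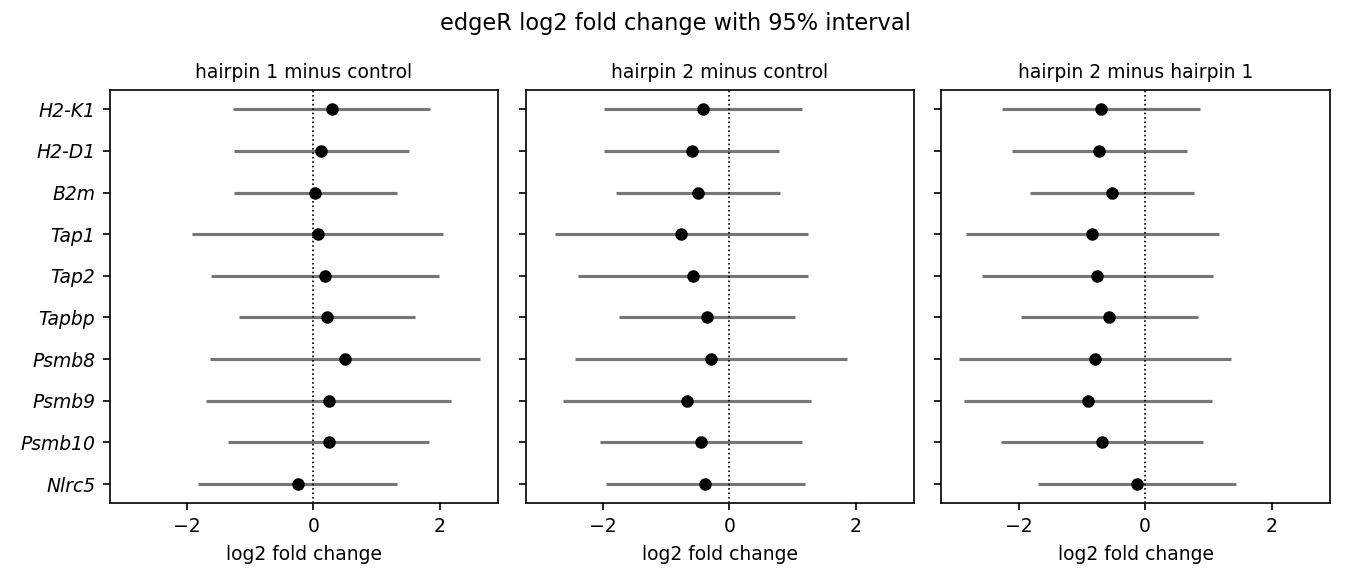
Points give the edgeR log2 fold change of each gene and lines its 95% interval, in a panel for each comparison of 3 against 3 libraries, with a dotted line at 0. All 10 points lie left of 0 in the 2 panels with hairpin 2, and every interval in all 3 panels crosses 0.

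Ratios of partner genes within a library need no scaling between libraries and showed which of the genes kept step. H2-D1 against B2m ran from 0.278 to 0.364 counts per kb for each count per kb of B2m over the 9 libraries, a 1.31-fold span, while H2-D1 itself spanned 8.12-fold. H2-K1 against B2m ran from 0.151 to 0.213, a 1.42-fold span. Its values were 0.213, 0.208 and 0.212 in the libraries labelled hairpin 1 and 0.172, 0.195 and 0.154 in control, so the first group lay above the second, by 0.29 on the log2 scale (exact two-sided permutation p = 0.1, n = 3 against 3, the smallest this design allows; Benjamini-Hochberg p = 0.774 over 21 ratio tests). With hairpin 2 the H2-K1 ratio was 0.156, 0.151 and 0.212, on both sides of the controls. The H2-D1 ratio was lower with hairpin 2 (0.281, 0.278 and 0.326) than labelled hairpin 1 (0.354, 0.341 and 0.364), by 0.26 on the log2 scale (exact two-sided permutation p = 0.1, adjusted 0.774). Tap1 against Tap2 ran from 1.71 to 2.48, a 1.46-fold span, and its differences between groups were 0.08 to 0.23 on the log2 scale in size (exact two-sided permutation p = 0.2 to 0.7).

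The immunoproteasome subunits varied over a wider range than the constitutive subunits they replace, so these ratios were not steady. Psmb8 against Psmb5 stood at 0.186, 0.156 and 0.0770 in control, at 0.237, 0.184 and 0.120 labelled hairpin 1, and at 0.0818, 0.0193 and 0.270 with hairpin 2, a 14.0-fold span. Psmb9 against Psmb6 spanned 11.1-fold, from 0.0304 to 0.337. Psmb10 against Psmb7 spanned 7.71-fold, from 0.437 to 3.37. Replicate 2 of hairpin 2 was the lowest library in all 3 ratios, and the next lowest values were 0.0770, 0.151 and 1.51. Per kb of exon, Psmb10 lay below Psmb7 only in that library. In CPM, without division by length, it also did so in control replicate 3 (106 against 127). The same held in replicate 3 labelled hairpin 1 (92.2 against 122) and replicate 1 of hairpin 2 (84.4 against 108). The constitutive subunits themselves spanned 1.55-fold for Psmb5, 1.71-fold for Psmb6 and 1.32-fold for Psmb7. Between hairpin 2 and control the 3 log2 ratios differed by -0.795, -0.96 and -0.72 (exact two-sided permutation p = 0.7, 0.6 and 0.6, n = 3 against 3; adjusted p = 0.774 for each). Labelled hairpin 1 they differed from control by 0.41, 0.16 and 0.15 (exact two-sided permutation p = 0.6, 0.7 and 0.9).

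**Figure D4:**
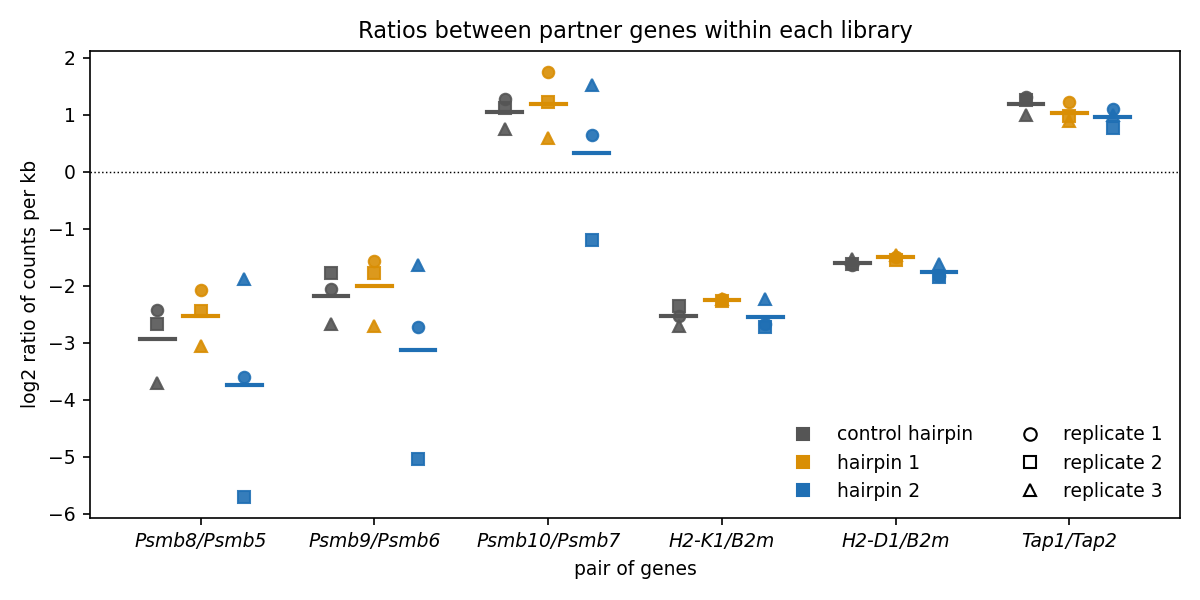
Points give log2 ratios of counts per kb of exon for 6 pairs of genes in each library, coloured by group and shaped by replicate, with bars at group means and a dotted line at equal levels. The 3 subunit pairs on the left spread over 7.71-fold to 14.0-fold, and the 3 pairs on the right over 1.31-fold to 1.46-fold.

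The remaining class I pathway was described by lists. Of 7 chaperones and trimming genes, none passed the threshold in any comparison. The lectin chaperones Calr and Canx and the disulfide isomerase Pdia3, which hold the heavy chain while it folds, spanned only 1.41-fold, 1.42-fold and 1.33-fold, at means of 1105, 839 and 739 CPM in control. Erap1, the aminopeptidase that trims peptides, spanned 5.20-fold and Tapbpl, a tapasin-related editor, 11.9-fold, both lowest in replicate 2 of hairpin 2. Over the 9 libraries their Pearson correlation with the mean log2 CPM of the 10 genes was 0.968 and 0.969, against 0.687 for Calr, 0.759 for Pdia3 and -0.369 for Canx. Without both libraries that stood apart the values were 0.756 for Erap1, 0.870 for Tapbpl, 0.818 for Calr, 0.779 for Pdia3 and -0.482 for Canx, so that Erap1 no longer exceeded Calr and Pdia3. Pdia3 was also lowest in replicate 2 of hairpin 2, at 632 CPM, and Calr second lowest there, at 956 CPM. Calr and Pdia3 thus had a narrower span than Erap1 and Tapbpl and were low in the same library, while Canx was not.

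Of 15 other class I or class I-like genes, 10 were tested and none passed the threshold in any comparison. H2-T22, H2-Q4 and H2-T23 were the most abundant, at 117 ± 30.5, 80.4 ± 12.5 and 64.9 ± 30.5 CPM in control (SD, n = 3). H2-T23, which encodes the Qa-1 molecule read by NK cell receptors, stood at 37.6, 11.9 and 109.8 CPM with hairpin 2 and at 159, 94.8 and 46.3 CPM labelled hairpin 1. Mr1, which presents vitamin B metabolites, spanned only 1.57-fold. Against control, 9 of the 10 tested were on the negative side with hairpin 2, against 48.5% of all tested genes, and their median log2 fold change was -0.28. With hairpin 2, H2-T22 stood at 64.6, 35.4 and 160 CPM and H2-Q4 at 69.7, 15.7 and 89.4 CPM. Replicate 3 of hairpin 2 thus lay above the control mean in H2-T22, H2-Q4 and H2-T23, and replicate 2 was the lowest library in each. Signs without replicate 2 of hairpin 2 are not given for this list. Labelled hairpin 1, 2 of the 10 were on the negative side, against 47.4%, and the median was 0.39.

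Among 8 proteasome partners none passed the threshold in any comparison. Psme1 and Psme2, the interferon-inducible activator PA28, spanned 4.29-fold and 5.55-fold, with correlations of 0.964 and 0.954 with the mean of the 10 genes (0.960 and 0.930 without both libraries that stood apart), while Psme3, the nuclear activator of the same family, spanned 1.15-fold. Psmb6 stood at 131, 124 and 173 CPM with hairpin 2, below the 3 controls at 184, 178 and 194 CPM, a log2 fold change of -0.38 (SE 0.14; edgeR adjusted p = 0.278). Of all tested genes, 10.2% lay lower in all 3 libraries of hairpin 2 than in all controls. With hairpin 2 against control, 2 of the 8 partners (Psmb5 and Psmb6) were lower at an unadjusted p under 0.05, against 6.27% of all tested genes, and 1 (Psme4, a proteasome activator) was higher, against 8.14%.

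Of 16 regulators none passed the threshold in any comparison either. Irf1, an interferon-induced activator of class I promoters, stood at 86.2, 162 and 99.5 CPM in control, at 193, 74.0 and 46.15 CPM labelled hairpin 1, and at 67.0, 17.9 and 87.3 CPM with hairpin 2. Ciita, the class II counterpart of Nlrc5, spanned 22.1-fold, from 0.835 to 18.5 CPM. The subunits of the factors that recruit Nlrc5 to the X and Y boxes spanned far less: Rfx5 1.66-fold, Rfxap 1.39-fold, Rfxank 1.43-fold, and Nfya, Nfyb and Nfyc 1.82-fold, 1.32-fold and 1.42-fold. Ezh2, a repressor of class I genes in some tumours, spanned 1.38-fold. Creb1, a factor that binds the TGACG core, stood at 91.3, 97.8 and 69.9 CPM with hairpin 2, above the 3 controls at 61.8, 55.8 and 61.1 CPM, a log2 fold change of 0.54 (SE 0.15; edgeR adjusted p = 0.242). Of all tested genes, 10.6% lay higher in all 3 libraries of hairpin 2 than in all controls. Nfyc was the other 1 of the 16 with an unadjusted p under 0.05 in that comparison, at -0.37 (SE 0.13), so that 2 of 16 had one, against 14.4% of all tested genes. Between the hairpins, Psmb5 and Psmb6 were lower at an unadjusted p under 0.05, against 5.23% of all tested genes, and Psme4, Creb1 and Rfx5 were higher, against 6.43%.

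Summed transcripts of leukocytes and of the interferon gamma axis were set beside the class I level, and some of the other lists moved with it too. The 16 leukocyte markers summed to 50.9 to 142 CPM in control, to 65.9 to 163 CPM labelled hairpin 1 and to 26.4 to 198 CPM with hairpin 2. The lowest sum was in replicate 2 of hairpin 2, and the highest 3 were in replicate 3 of hairpin 2, replicate 1 labelled hairpin 1 and control replicate 2, the 3 libraries with the highest class I levels. Up to 2 of these markers were at 0 counts in a library, Cd3e and Ncr1 in replicate 2 of hairpin 2. Over 9 libraries the log2 sum and the mean log2 CPM of the 10 genes had a Pearson correlation of 0.843 and a Spearman correlation of 0.850, and the Pearson value was 0.790 without the 2 libraries farthest in the sum and 0.753 without both libraries that stood apart. Gene by gene, 4 of the 13 tested markers had a correlation over 0.8, against 4.84% of 10515 other genes with a mean of at least 5 CPM. Some of the markers lay under that level. The B cell gene Cd79a had a correlation of -0.306. The sum of the 8 proteasome partners had a Pearson correlation of 0.890 and that of the 7 melanocyte genes one of 0.637, or 0.882 and 0.778 without both libraries that stood apart. For the chaperone, fibroblast, endothelial and erythroid sums the Pearson values were 0.53, 0.281, -0.488 and -0.617. Without both libraries that stood apart they were 0.625, 0.356, 0.0901 and 0.258. The melanocyte sum had a Spearman correlation of 0.717 over 9 libraries, and 1 of its 7 genes had a Pearson correlation over 0.8. Whether the leukocyte or the melanocyte sum followed class I more closely was not tested. All these sums and the class I level come from the same libraries and share their depth and scaling. The part of the sums in the class I level was not tested. In bulk tissue, fewer cells of a type and less RNA per cell cannot be told apart.

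The interferon gamma axis list of 15 genes summed to 886 to 1418 CPM in control, to 602 to 1994 CPM labelled hairpin 1 and to 379 to 1395 CPM with hairpin 2. Of its 13 tested genes, none passed the threshold in any comparison. The GTPases Irgm1, Igtp and Gbp2, which act against intracellular parasites, spanned 12.8-fold, 34.0-fold and 16.8-fold and were lowest in replicate 2 of hairpin 2. Ifng, the cytokine itself, was near the limit of these libraries at 0 to 0.914 CPM and was not tested, and its receptor and kinase genes Ifngr1, Ifngr2, Jak1 and Jak2 spanned 1.29-fold to 1.40-fold. The Pearson correlation of the log2 sum with the mean of the 10 genes was 0.914, the Spearman correlation 0.967, and the Pearson value 0.857 without the 2 farthest libraries, which were also those that stood apart. Erythroid transcripts ran the other way in 1 library: they summed to 21462 CPM in replicate 2 of hairpin 2 and to 421 to 4967 CPM elsewhere. Endothelial transcripts were highest there too, at 274 CPM against 140.0 to 233 CPM elsewhere. The melanocyte sum was lowest there, at 20473 CPM against 21063 to 26930 CPM elsewhere. Fibroblast transcripts were highest in replicate 1 labelled hairpin 1 (3274 CPM) and replicate 3 of hairpin 2 (1409 CPM), both high in class I, and summed to 177 to 758 CPM in the other 7 libraries. Replicate 2 of hairpin 2, the lowest in class I, had 480 CPM, above the controls at 177 to 415 CPM. The Pearson correlation of the fibroblast sum with the mean of the 10 genes was 0.281, and -0.349 without the 2 libraries highest in that sum. The part of these sums in the class I level was not tested.

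**Figure D5:**
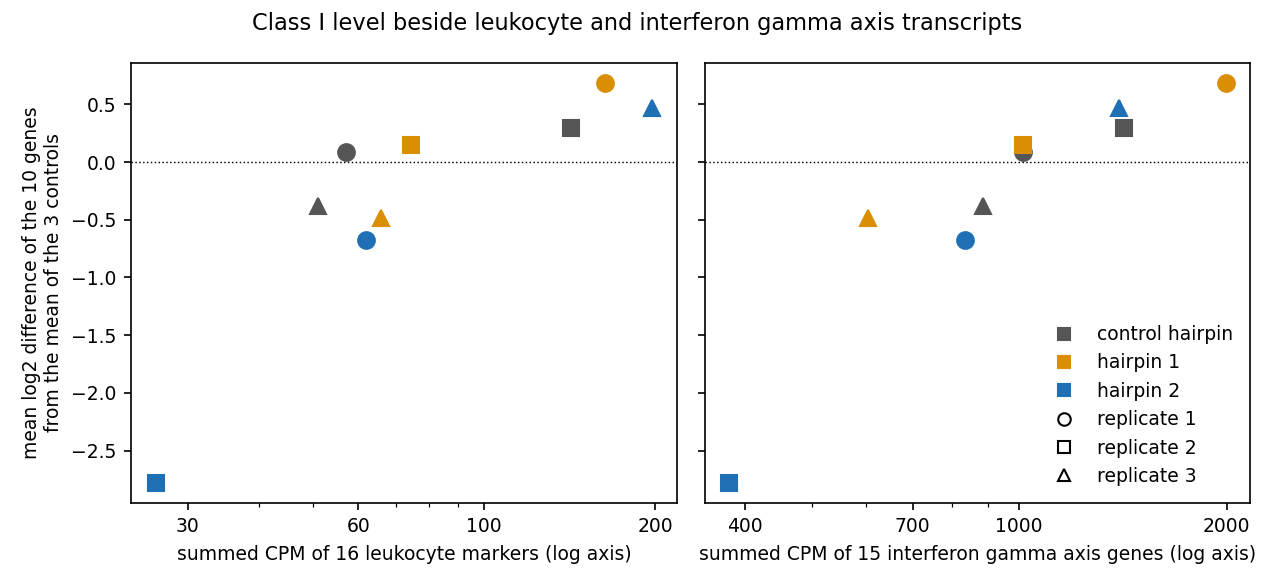
Each point is 1 of the 9 libraries, with the mean log2 difference of the 10 genes from the controls on the vertical axis and the summed CPM of the leukocyte markers (left) or the interferon gamma axis genes (right) on a log horizontal axis. Replicate 2 of hairpin 2 lies at the lower left of both panels, at -2.78, and the other 8 libraries lie between -0.68 and 0.69.

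The 10 genes varied as a unit. Their 45 pairs had Pearson correlations of 0.904 to 0.997 in log2 CPM over the 9 libraries, with a median of 0.977. Without both libraries that stood apart the pairs had correlations of 0.547 to 0.985 over 7 libraries, with a median of 0.916, and at least 0.762 among pairs without Nlrc5. Nlrc5 followed the rest least, with a correlation of 0.952 with the mean of the 10 over all 9 libraries and 0.733 over the 7. These values describe libraries that share depth and scaling, and the mean includes the gene itself.

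Other genes with the same pattern were sought among 10515 genes with a mean of at least 5 CPM. A correlation over 0.9 with the mean of the 10 genes was found for 167 of them (1.59%), and for 85 (0.808%) without both libraries that stood apart. The 10 most alike were H2-DMa, Batf2, H2-Ab1, H2-Eb1, Ifi35, Lgals9, H2-Aa, Cd74, Gbp3 and Apol9b, with correlations of 0.992 down to 0.981 over 9 libraries and of 0.883 to 0.968 over the 7. H2-Aa, H2-Ab1 and H2-Eb1 are chains of MHC class II, H2-DMa loads class II with peptide, and Cd74 is the class II invariant chain. H2-Ab1 stood at 90.5, 120 and 67.8 CPM in control, at 162, 136.5 and 62.7 CPM labelled hairpin 1, and at 41.35, 7.87 and 154 CPM with hairpin 2. The 5 genes that ran most against the pattern were Stard4, Jade1, Npnt, Ubxn2a and Zmat3, with correlations of -0.968 to -0.947 (-0.883 to -0.648 without both libraries that stood apart), and all 5 were highest in replicate 2 of hairpin 2.

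Neighbouring genes were compared by position. Between Tapbp and H2-D1 on chromosome 17, 60 other genes were tested, 7 of them with H2 names (H2-Aa, H2-Ab1, H2-DMa, H2-DMb1, H2-DMb2, H2-Eb1 and H2-K2) and 53 without. The median correlation with the mean of the 10 genes was 0.988 for the first set and 0.271 for the second, or 0.951 and 0.192 without both libraries that stood apart. In replicate 2 of hairpin 2 the median log2 difference from the controls was -3.67 for the H2-named neighbours and -0.18 for the other 53, against -2.64 for the 10 genes and 0.00 over all tested genes. Of the 53, 9 had a correlation over 0.8, against 4.84% of the 10515 genes above. The 53 were not limited to a mean of at least 5 CPM, as the 10515 were. They were Abhd16a, Aif1, C2, C4b, Clic1, Csnk2b, D17H6S53E, Lst1 and Ppt2, named after their values were seen.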

How the data were processed

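TRIzol extracts of 9 tumours were sequenced on a NovaSeq, per the labels' protocols. The deposited values are whole-number counts per gene symbol made by the authors. The submitters' processing notes list STAR 2.7.0d, Cufflinks, GRCh38 and hg38, which are human builds, while the symbols are mouse. How reads were counted, with which annotation and strand setting, is not given in the sources used here.

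Genes were kept by filterByExpr (minimum count 10, minimum total 15 by group) and scaled by TMM. The main test was the robust quasi-likelihood test of edgeR 4.0.16 (R 4.3.3) with the 9 libraries as 3 groups, adjusted by Benjamini-Hochberg over 14193 genes, at a threshold of 0.05. No library matched another within sampling noise (chi-square over its degrees of freedom 20.7 to 72.3 within groups). Log2 CPM used a prior count of 2, and levels per kb used the union of GENCODE M21 exons. Ratios of counts per kb were tested by exact permutation (SciPy 1.17.1). Promoters were RefSeq's on GRCm38.p6. The test steps, DESeq2 1.42.0 and limma 3.58.1 included, were tested on simulated counts.

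The members and lists were chosen with earlier results of these data known. Named were the 10 members, the 3 most abundant genes of each pathway list, list genes past the threshold, and the 10 genes most and the 5 least alike the mean log2 CPM of the members. A gene that this rule names, and a promoter motif, are not reported here. Further list genes (Erap1, Tapbpl, Mr1, Psme2, Psme4, Psmb5, Psmb7, Cd79a, Creb1, Ciita, the X and Y box factors, Ifng and its receptor and kinase genes) were named after their values were seen. Alternatives were other scalings, tools and filters, pairwise fits, a replicate block, another gene length and leaving out libraries.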

Additional observations from a re-analysis of the deposited data

How the results depend on the processing

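None of the 10 genes passed the threshold under any of the 16 alternatives per comparison, where the lowest adjusted p was 0.991, 0.256 and 0.211 for hairpin 1 against control, hairpin 2 against control and hairpin 2 against hairpin 1. Over all genes, hairpin 2 against control gave 4 calls without the filter and 167 with DESeq2, and 0 to 2 with 1 library left out; hairpin 2 against hairpin 1 gave 2, 27, and 0 to 1. Libraries of the same replicate number were not more alike (correlations of deviations -0.409 to 0.138) than those of other numbers (-0.405 to 0.513). With 3 libraries a group, these values cannot exclude that the numbers pair samples. The replicate block gave 0 calls and medians of 0.15, -0.65 and -0.855, with B2m at -0.00163 and Tap1 at -0.027 for hairpin 1. limma-voom gave medians of 0.125, -0.927 and -1.09, against 0.20, -0.47 and -0.71 with edgeR, and -0.0352 for Tap1 with hairpin 1. Without both libraries that stood apart, log2 fold changes changed sign for hairpin 1 in H2-D1 (-0.118), B2m (-0.209), Tap1 (-0.467), Tap2 (-0.208), Tapbp (-0.253), Psmb9 (-0.14) and Psmb10 (-0.155), with a median of -0.181. For hairpin 2 they did so in H2-K1 (0.0359), Tapbp (0.0379), Psmb8 (0.21), Psmb10 (0.00287) and Nlrc5 (0.095). Between the hairpins they did so in B2m (0.139), Tap1 (0.203), Tap2 (0.125), Tapbp (0.291), Psmb8 (0.0234), Psmb10 (0.158) and Nlrc5 (0.606), with a median of 0.132. With 1 library left out, the hairpin 1 values ran from -0.119 to 0.311 for H2-D1, -0.21 to 0.229 for B2m, -0.468 to 0.383 for Tap1, -0.209 to 0.451 for Tap2, -0.254 to 0.489 for Tapbp, -0.141 to 0.545 for Psmb9 and -0.156 to 0.506 for Psmb10, with medians of -0.182 to 0.468. The hairpin 2 values ran from -1.23 to 0.042 for H2-K1, -1.11 to 0.0435 for Tapbp, -1.91 to 0.215 for Psmb8, -1.3 to 0.0081 for Psmb10 and -1.08 to 0.101 for Nlrc5, with medians of -1.29 to -0.0278. Between the hairpins Nlrc5 ran from -0.824 to 0.362 and the median from -1.53 to -0.244. Log2 ratios ran for hairpin 2 from -1.72 to 0.187 (Psmb8/Psmb5), -1.32 to 0.0448 (Psmb10/Psmb7), -1.58 to 0.0748 (mean of the 3 subunit ratios) and -0.174 to 0.0745 (H2-K1/B2m). For hairpin 1 they ran from -0.0908 to 0.505 (Psmb9/Psmb6), -0.131 to 0.448 (Psmb10/Psmb7) and -0.0212 to 0.544 (mean of the 3), and between the hairpins from -0.151 to 0.0216 (Tap1/Tap2). The median span of 9.87-fold became 2.7-fold without replicate 2 of hairpin 2, genes with a correlation over 0.9 numbered 167, and 85 without both libraries that stood apart, and the longest transcript as length moved 2 genes in rank in each hairpin group. The cause of these shifts was not tested. Depth limited Ifng, at 0 to 0.914 CPM, and not the 10 genes, which had at least 100 counts in each library.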
